A study of Mus musculus with 12 samples.

Results

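The genes described are 10 members of the Rgs family, the regulators of G protein signalling: Rgs16, Rgs1, Rgs2, Rgs3, Rgs5, Rgs10, Rgs12, Rgs14, Rgs18 and Rgs19. They were taken by symbol from a table of 55421 genes, of which 15006 passed a filter on low counts and were tested. All 10 members passed that filter. The family was chosen on the difference in Rgs16 between livers of mice housed at 29 °C and at 6 °C, so that difference is given below as a description, without a test. The libraries were made from livers of WT mice that all carried E0771 tumours, grown from a mouse mammary carcinoma line implanted in the mammary fat pad, and there was no tumour-free group. Mice were kept at 6, 22 or 29 °C, with 1 week of acclimatisation, a 12 h light and 12 h dark cycle and free access to food and water, and tumour growth was followed to day 21. Each temperature has 4 libraries, numbered here 1 to 4 (6 °C), 5 to 8 (22 °C) and 9 to 12 (29 °C). The labels name both Balb/C and C57Bl6/J mice but do not tie a strain to any library, and give neither age nor sex, nor whether each library is 1 animal. The p-values therefore measure the spread between libraries, which may be partly technical.

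RGS proteins act on heterotrimeric G proteins, the switches below G protein-coupled receptors. A receptor loads the alpha subunit with GTP, and the alpha subunit and the released beta-gamma dimer then act on effectors such as adenylyl cyclase or phospholipase C. The RGS domain speeds the hydrolysis of that GTP and so shortens the signal. Rgs1, Rgs2, Rgs3, Rgs5, Rgs16 and Rgs18 belong to a subfamily of mostly short proteins that act on Gi and Gq alpha subunits, with Rgs2 favouring Gq. Rgs10, Rgs12 and Rgs14 form another subfamily acting on Gi subunits, in which Rgs12 and Rgs14 are larger proteins that also carry a GoLoco motif, which binds Gi in its GDP form. Rgs19, also called GAIP, belongs to a further subfamily with a cysteine-rich N terminus. In liver, Rgs16 is known as a gene of hepatocytes that follows feeding and fasting, and Rgs5 as a marker of pericytes and other mural cells of blood vessels.

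Of the 10 members, 5 lie on chromosome 1 of the mouse genome (GRCm38, GENCODE M21): Rgs2 (143999338 to 144004161), Rgs1 (144242296 to 144249242), Rgs18 (144752683 to 144775435), Rgs16 (153740349 to 153745468) and Rgs5 (169655501 to 169695813). The first 3 of these stand with Rgs13 and Rgs21 in a row of 5 genes on the minus strand, 776.1 kb long. Neither Rgs13 (4 counts over the 12 libraries) nor Rgs21 (1 count) passed the low-count filter. Rgs16 lies on the plus strand, 40.025 kb beyond the end of Rgs8, a gene of the same strand with 22 counts in all. Rgs19 is on chromosome 2 (181688419 to 181693977, minus strand) and Rgs3 on chromosome 4 (62559847 to 62704001, plus). Rgs12 is on chromosome 5 (34949445 to 35039644, plus), Rgs10 on chromosome 7 (128373621 to 128418758, minus) and Rgs14 on chromosome 13 (55369732 to 55384687, plus). An antisense gene, Gm28513, overlaps Rgs16 and had 23 counts against 19230 for Rgs16. Strand use in the counting is not given in the sources used here, so reads from this pair could not be told apart.

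The 250 bases before the start are shown for 3 members that recur below: Rgs16, with the largest temperature difference, Rgs19, with the next largest between 29 °C and 6 °C, and Rgs5, second in counts and with no difference past the threshold between temperatures. The sequences are from RefSeq (GRCm38.p6), 5′ to 3′ on the gene's own strand, and 7 of the 10 members have an entry. Windows are chr1:153740103-153740352 (plus strand) for Rgs16, chr2:181693978-181694227 (minus strand) for the first of 3 Rgs19 starts and chr1:169655251-169655500 (plus strand) for Rgs5. Capitals mark matches to the GC box GGGCGG on either strand.
Rgs16 upstream: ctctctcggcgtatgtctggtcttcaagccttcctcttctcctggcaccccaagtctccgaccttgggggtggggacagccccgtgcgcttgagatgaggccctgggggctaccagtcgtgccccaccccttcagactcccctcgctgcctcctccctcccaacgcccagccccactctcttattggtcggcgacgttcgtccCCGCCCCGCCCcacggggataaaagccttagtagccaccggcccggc
Rgs19 upstream: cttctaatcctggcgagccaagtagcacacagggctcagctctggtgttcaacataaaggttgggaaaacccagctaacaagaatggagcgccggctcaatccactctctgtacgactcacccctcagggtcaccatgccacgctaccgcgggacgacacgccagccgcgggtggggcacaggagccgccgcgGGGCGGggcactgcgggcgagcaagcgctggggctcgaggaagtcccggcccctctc
Rgs5 upstream: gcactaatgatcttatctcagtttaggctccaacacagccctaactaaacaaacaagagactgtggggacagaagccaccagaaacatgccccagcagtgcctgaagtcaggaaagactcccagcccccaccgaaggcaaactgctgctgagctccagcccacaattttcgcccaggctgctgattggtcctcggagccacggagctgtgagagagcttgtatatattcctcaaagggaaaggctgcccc
The Rgs16 window held 2 overlapping GC boxes and was 66.4% G or C, the Rgs19 window held 1 and was 64.8% G or C, and the Rgs5 window held none at 53.6%. The median over 32851 RefSeq windows of the same length was 52.4%, and 32.7% of them hold a GC box on either strand. Another 4 motifs were searched on both strands: CACGTG (an E-box, in 6.02% of all windows), TGACG (the core of the cAMP response element, in 17.8%), TGACGTCA (the full element, in 1.55%, each of which also matches TGACG) and TATAAA (in 12.4%). None of these 4 is in the 3 windows shown. A match here is a description of the letters, and its absence says nothing about any factor.

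Libraries held 7615585 to 19001126 counts, so that 3 counts, the limit that a count of 0 allows, correspond to 0.158 to 0.394 CPM (counts scaled to the library total). Such limits cover counting error only. Markers of hepatocytes were high in every library (Alb, Apoa1, Ttr and 4 others, summed level 69575 to 180734 CPM). Of 7 mammary epithelial markers, 4 (Krt5, Csn2, Lalba, Wap) had no counts and Krt14 had 1, while the simple epithelial keratins Krt8 (47.8 to 126 CPM) and Krt18 (142 to 294 CPM) were present in every library. Library 11, at 29 °C, stood apart by transcripts of the gut. Akp3, Sis and Krt20 were at 278, 72.0 and 51.5 CPM in it and had no counts in the other 11, and Vil1 was at 40.4 CPM against at most 0.815 CPM. Without library 11, Rgs16 at 29 °C lay 3.78 above 6 °C on the log2 scale. With the split term and without library 11, Rgs1 and Rgs19 differed by 1.12 and 1.28 between these temperatures (adjusted p = 0.0129 and 0.0230). Libraries 1, 7, 8 and 9 held 11.8 to 17.1 CPM of the pseudogene H2-Ea-ps and the other 8 held none. This split crosses the temperatures, was known from earlier results of these data and is not a group that the labels name. Since no strain is tied to a library, split and strain cannot be told apart here. Of 15006 genes, 22.6% differed between the 4 and the 8 libraries, with temperature in the fit. The hepatocyte sum parted them by a narrow margin, at 69575 to 82248 CPM in the 4 and 82600 to 180734 CPM in the 8. Of its 7 markers Hnf4a alone separated them. Alb, which makes up most of the sum, overlapped, at 63385 CPM in library 7 and 61735 CPM in library 2. The part of hepatocyte RNA in the differences with the split was not tested. Values with a term for this split are given beside those members where it changed the call, and for several other members and pathway genes. For pathway genes they are not complete, so where none is given the term may have changed the call.

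Rgs16 had the most counts of the 10 members and stood in the order 6, 22, 29 °C. At 6 °C its levels were 14.9, 7.84, 31.9 and 8.53 CPM in libraries 1 to 4. At 22 °C they were 111, 72.6, 68.8 and 99.7 CPM, and at 29 °C 85.5, 313, 188 and 256 CPM. Every library at 6 °C lay below every other library. The 29 °C group reached the highest values, but its lowest library, 9, lay among those at 22 °C. Library 9 is the one 29 °C library with H2-Ea-ps. Means were 15.8 ± 11.2, 88.0 ± 20.5 and 211 ± 98.0 CPM (SD, n = 4 each).

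Between 29 °C and 6 °C, the contrast on which Rgs16 was chosen, the fitted difference was 3.73 on the log2 scale (SE 0.51), or 13.2-fold. It lay between 3.47 and 4.33 on the log2 scale when the tool, the scaling or the filter was changed or 1 library was left out. Both other differences of Rgs16 share libraries with that contrast and are not independent of it. Rgs16 at 6 °C was 5.53-fold below its level at 22 °C (log2 -2.47, SE 0.49), with an adjusted p of 0.167 by edgeR's quasi-likelihood test. None of the members passed in that comparison, where 5 genes or 0.0333% of those tested did and 1787 had an unadjusted p under 0.05. By its p, Rgs16 ranked at place 28 of the 15006 genes. DESeq2, which called 1.34% of the genes it tested there, gave an adjusted p of 1.68e-05. Without library 3, the highest at 6 °C, edgeR gave -3.07 with an adjusted p of 0.0393. With the split term the difference was -2.59 (adjusted p = 0.0681), in a fit that called 0.367% of genes.

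From 22 °C to 29 °C Rgs16 was 2.39-fold higher by the fit (log2 1.26, SE 0.46), with an adjusted p of 0.264. No gene passed by edgeR in that comparison (0% of those tested, 2241 at an unadjusted p under 0.05), with 325 genes passing by DESeq2 and 5 by voom. Adding the split term gave 1.05 (adjusted p = 0.233). Within the 4 libraries with H2-Ea-ps, Rgs16 differed by 0.02 on the log2 scale between 29 °C and 22 °C, and within the other 8 by 1.46. The difference between these 2 values was -1.44 (SE 1.04, adjusted p = 0.627, edgeR with an interaction term), so it did not exceed the spread. The group of 4 holds just 1 library at 29 °C and 1 at 6 °C.

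The summed level of 10 platelet and megakaryocyte markers was the 1 of 14 marker sums whose ranges did not overlap between any 2 temperatures. It was 6.69 to 15.1 CPM at 6 °C, 17.6 to 24.6 CPM at 22 °C and 27.1 to 47.1 CPM at 29 °C. Of the 10 markers taken singly, Tubb1 alone had such ranges. Itga2b, the marker with the most counts, overlapped, at 4.35 to 10.7 CPM at 6 °C and 4.80 to 16.5 CPM at 22 °C. The part of this sum in the level of Rgs16 was not tested. In bulk tissue, fewer cells of a type and less RNA per cell cannot be told apart.

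**Figure D1:**
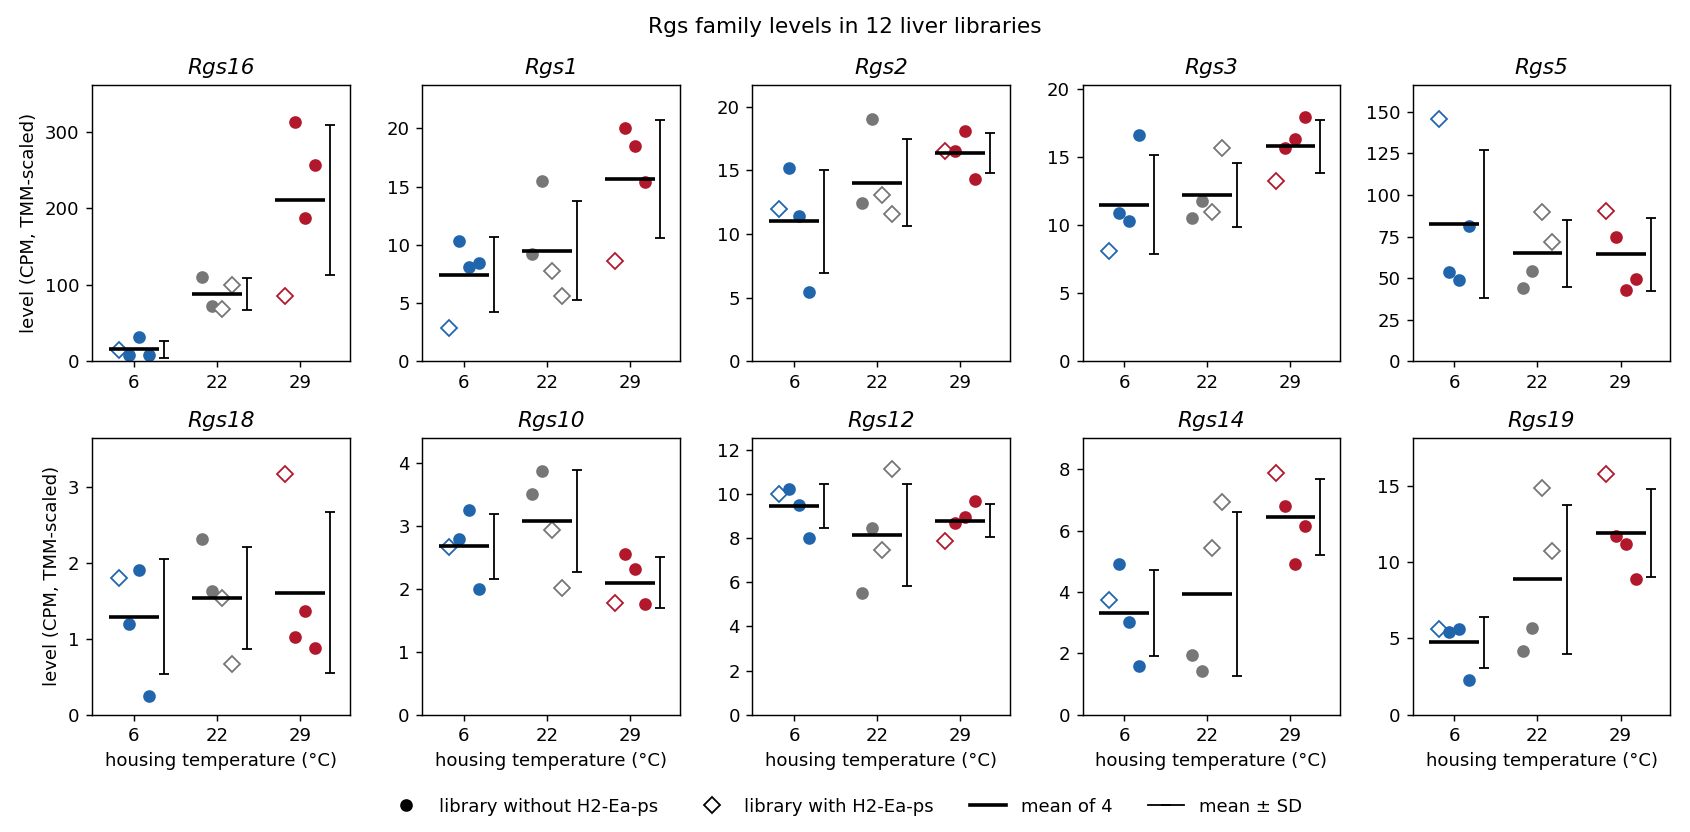
Level of each of the 10 members (CPM after TMM scaling, linear axes from 0 that differ between panels) in each library by housing temperature; points are libraries, open diamonds the 4 libraries with H2-Ea-ps, bars the mean of 4 and brackets the mean ± SD. Rgs16 at 6 °C (7.84 to 31.9 CPM) lies below all other libraries, whereas in Rgs1 and Rgs5 the open and filled points separate within each temperature.

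Rgs1 is best known from lymphocytes, where it dampens signalling by chemokine receptors. Its levels were 2.88, 10.4, 8.10 and 8.45 CPM at 6 °C, 9.23, 15.5, 7.73 and 5.60 CPM at 22 °C and 8.64, 20.02, 18.5 and 15.4 CPM at 29 °C. Libraries 10, 11 and 12 were high, and library 9 lay among the colder groups. At each temperature the libraries with H2-Ea-ps lay below the others. Group means were 7.45 ± 3.21, 9.51 ± 4.25 and 15.6 ± 5.05 CPM (SD, n = 4 each). By temperature alone, Rgs1 at 29 °C was 2.12-fold its level at 6 °C (log2 1.08, SE 0.39, adjusted p = 0.152). In the fit with the split term the difference was 1.13 (SE 0.21) with an adjusted p of 0.00381, where 12.6% of all genes passed. That call held with each of the 12 libraries left out in turn (0.99 to 1.23, adjusted p from 0.00325 to 0.0170).

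The split itself went with Rgs1 as well. It averaged 6.21 ± 2.56 CPM in the 4 libraries with H2-Ea-ps and 13.2 ± 4.74 CPM in the other 8. With temperature in the fit it was 2.18-fold lower in the 4 (log2 -1.13, SE 0.20, adjusted p = 0.000977 by edgeR). The marker sums of Kupffer cells and of B cells ran in the same direction. The 10 Kupffer cell and macrophage markers summed to 412 to 638 CPM in the 4 libraries and 513 to 1352 CPM in the 8, and 7 B cell markers to 2.30 to 5.40 and 8.91 to 15.2 CPM. By temperature, the Kupffer cell sum was 513 to 945 CPM at 6 °C, 412 to 1107 CPM at 22 °C and 610 to 1352 CPM at 29 °C. Libraries 10, 11, 6 and 12, in this order, had the 4 highest levels of Rgs1, and the same 4 had the highest Kupffer cell sums. All 10 Kupffer cell and all 7 B cell markers were detected. Their part in the difference of Rgs1 was not tested, and this pairing of gene and markers was chosen after the values were seen.

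Rgs2, which acts mainly on Gq, was measured at 12.0, 15.2, 11.4 and 5.44 CPM at 6 °C, at 12.5, 19.05, 13.03 and 11.6 CPM at 22 °C and at 16.5, 16.5, 18.1 and 14.3 CPM at 29 °C. The groups overlapped, with library 4 lowest and library 6 highest. The log2 difference between 29 °C and 6 °C was 0.58 (SE 0.26, adjusted p = 0.237), and 0.58 with the split term (adjusted p = 0.143). Rgs3, whose longer forms carry further domains beside the RGS domain, overlapped between temperatures as well. Its libraries ran from 8.14 to 16.6 CPM at 6 °C, 10.5 to 15.7 CPM at 22 °C and 13.3 to 18.0 CPM at 29 °C. The difference between 29 °C and 6 °C was 0.46 (SE 0.22, adjusted p = 0.265), within the spread of the libraries.

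Rgs5, the mural cell gene, had no difference between temperatures past the threshold. Libraries 1 to 4 held 146, 53.7, 48.9 and 81.6 CPM, libraries 5 to 8 held 43.8, 54.2, 90.0 and 71.6 CPM, and libraries 9 to 12 held 90.3, 74.5, 42.8 and 49.7 CPM. Group means of 82.5 ± 44.5, 64.9 ± 20.3 and 64.3 ± 22.0 CPM (SD, n = 4 each) overlapped widely. Library 1 was far above the other 11, and without it the difference between 29 °C and 6 °C turned from -0.36 (SE 0.36, adjusted p = 0.633) to 0.066 on the log2 scale. At each temperature the libraries with H2-Ea-ps lay above the others. Rgs5 was 1.84-fold higher in the 4 libraries with H2-Ea-ps (99.4 ± 32.0 CPM against 56.2 ± 14.2 CPM in the 8; log2 0.88, SE 0.17, adjusted p = 0.00229 by edgeR). Rgs5 and Rgs1 differed with this split in opposite directions, and both calls held in all 17 alternatives run for it. The sum of 9 pericyte and vascular smooth muscle markers was 105 to 163 CPM in the 4 libraries and 93.0 to 183 CPM in the 8, so these ranges overlapped. Library 1 had the highest sum of 9 stellate cell markers (1270 CPM, against 806 to 1068 CPM in the other 11). The part of these cells in the level of Rgs5 was not tested.

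Rgs18 is a gene of platelets, megakaryocytes and other blood cells. It was the member with the fewest counts (234 over the 12 libraries). Levels were 1.80, 1.20, 1.91 and 0.25 CPM at 6 °C, 2.31, 1.63, 1.53 and 0.67 CPM at 22 °C and 3.16, 1.02, 1.36 and 0.88 CPM at 29 °C. The highest and lowest libraries were 9 and 4, and the level in library 4 is 3 counts. Between 29 °C and 6 °C the difference was 0.30 (SE 0.59, adjusted p = 0.835), and its sign turned without library 4 or library 9. Unlike the platelet marker sum above, Rgs18 overlapped between all 3 temperatures.

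In the subfamily with Rgs10, Rgs12 and Rgs14, no difference of Rgs10 or Rgs12 between temperatures passed the test. Rgs10, best known from immune cells and microglia, had 2.01 to 3.26 CPM at 6 °C, 2.02 to 3.87 CPM at 22 °C and 1.76 to 2.56 CPM at 29 °C. The fit placed it lower at 29 °C than at both other temperatures, by a log2 value of -0.34 against 6 °C (SE 0.30, adjusted p = 0.566) and -0.54 against 22 °C (SE 0.29, adjusted p = 0.402). Neither difference exceeded the spread. Rgs12, a large scaffold protein, had 8.03 to 10.2 CPM at 6 °C, 5.54 to 11.1 CPM at 22 °C and 7.87 to 9.69 CPM at 29 °C. Its difference between 29 °C and 6 °C was -0.10 (SE 0.21, adjusted p = 0.844).

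Levels of Rgs14, a protein with a GoLoco motif, were 3.74, 4.92, 3.02 and 1.59 CPM at 6 °C, 1.94, 1.43, 5.43 and 6.94 CPM at 22 °C and 7.87, 6.82, 4.93 and 6.17 CPM at 29 °C. The 29 °C group lay above the 6 °C group by a margin of 4.93 to 4.92 CPM, and at 22 °C libraries 7 and 8, those with H2-Ea-ps, were well above libraries 5 and 6. The log2 difference between 29 °C and 6 °C was 0.97 (SE 0.46, adjusted p = 0.267), and 0.99 with the split term (adjusted p = 0.0786). Between 29 °C and 22 °C it was 0.69 (SE 0.45, adjusted p = 0.489). In the 8 libraries without H2-Ea-ps that value was 1.81 (adjusted p = 0.0159), in a fit that called 17.1% of genes. Within the 4 libraries with H2-Ea-ps it was 0.35, and the difference between both values did not pass over all genes (-1.47, SE 0.65, adjusted p = 0.373, edgeR with an interaction term).

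Rgs19, which acts on Gi subunits and was first found by its binding to Gi3, was another member whose 29 °C libraries lay clear of those at 6 °C. It was at 5.62, 5.45, 5.64 and 2.26 CPM at 6 °C. At 22 °C it was at 4.15, 5.70, 14.9 and 10.8 CPM, and at 29 °C at 15.8, 11.7, 11.2 and 8.88 CPM. Libraries 7, 8 and 9, all with H2-Ea-ps, were among the 5 highest, and library 4 was the lowest of all. Means were 4.74 ± 1.66, 8.87 ± 4.90 and 11.9 ± 2.89 CPM (SD, n = 4 each). Rgs19 at 29 °C was 2.51-fold its level at 6 °C (log2 1.33, SE 0.39), which missed the threshold with an adjusted p of 0.0851. It passed in the fit with the split term (1.33, SE 0.28, adjusted p = 0.00749), and there also with each of the 12 libraries left out in turn (1.13 to 1.55, adjusted p from 0.00647 to 0.0328). In the 8 libraries without H2-Ea-ps it passed between 29 °C and 22 °C as well (1.10, adjusted p = 0.0473). That fit called 17.1% of genes. In all 12 libraries the same difference was 0.41 (SE 0.38, adjusted p = 0.641 by edgeR), and within the 4 with H2-Ea-ps it was 0.30. Against 22 °C, the level at 6 °C was lower by a log2 value of -0.91 (SE 0.39, adjusted p = 0.380).

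With temperature in the fit, Rgs19 was 1.79-fold higher in the 4 libraries with H2-Ea-ps (11.8 ± 4.65 CPM against 6.87 ± 3.37 CPM; log2 0.84, SE 0.25, adjusted p = 0.0258 by edgeR). This call was lost without library 5, 6, 7 or 9 (adjusted p = 0.0855, 0.0645, 0.0745 and 0.0511). Rgs14 leaned the same way without passing (6.00 ± 1.81 CPM against 3.85 ± 2.13 CPM; log2 0.91, SE 0.33, adjusted p = 0.0556), and was called in 6 of 17 alternatives. The sum of 9 neutrophil markers, all detected, separated the same libraries by a narrow margin. It was 661 to 1848 CPM in the 4 and 29.4 to 637 CPM in the 8. Taken singly, S100a9 and Ly6g separated them and the remaining markers overlapped. Ltf, for example, was at 172 CPM in library 1 and 227 CPM in library 11. By temperature the sum was 29.4 to 661 CPM at 6 °C, 308 to 1177 CPM at 22 °C and 453 to 1848 CPM at 29 °C. Library 4 had the lowest neutrophil sum and the lowest Rgs18 and Rgs19, and library 9 the highest neutrophil sum and the highest Rgs14, Rgs18 and Rgs19. Other libraries did not follow this order. Library 8, with a sum of 890 CPM, had Rgs18 at 0.67 CPM, and library 5, with 344 CPM, had it at 2.31 CPM. Library 1, with 661 CPM, had Rgs19 at 5.62 CPM, and Rgs14 was lowest in library 6. The part of neutrophil RNA in these differences was not tested, and these pairings too were chosen after the values were seen.

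**Figure D2:**
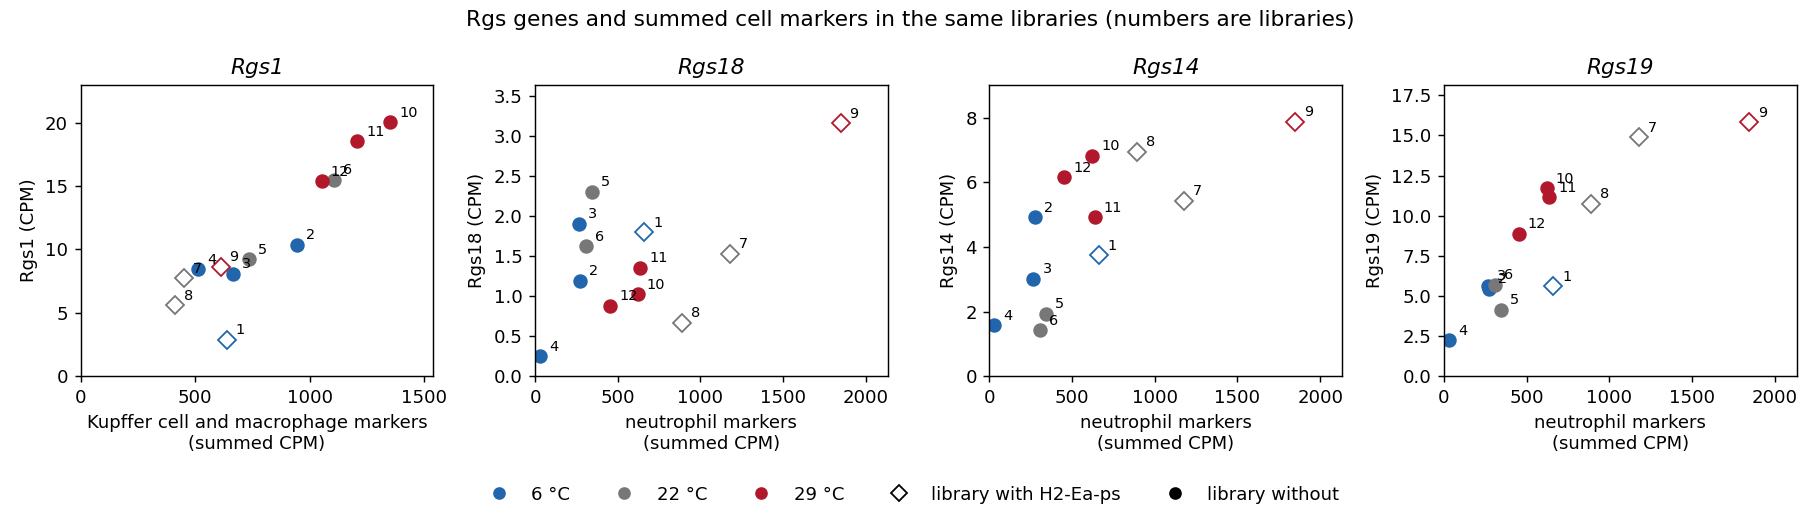
Level of Rgs1 against the summed level of 10 Kupffer cell and macrophage markers, and of Rgs18, Rgs14 and Rgs19 against that of 9 neutrophil markers (both axes in CPM, linear), with 1 point per library, coloured by temperature and numbered by library. Libraries 10, 11, 6 and 12 stand at the upper right for Rgs1, and library 9 at the upper right and library 4 at the lower left for Rgs18 and Rgs19.

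Across the family, 1 of the 10 members passed between 29 °C and 6 °C by temperature alone, where 2.53% of all genes passed (379 of 15006). Leaving out 1 library brought that total to 41 (without library 10), 47 (4), 67 (3), 71 (11), 149 (12) or 211 (9), and to between 255 and 439 for the other 6. The 1 member is Rgs16, on which the family was chosen, so nothing is read from this count. Of the other 9, 6 had a positive and 3 a negative log2 difference. Groups did not overlap in Rgs16, from which nothing is read for the same reason, and in Rgs14 and Rgs19 among the other 9. These were higher at 29 °C, Rgs14 by the narrow margin given above. Of all 15006 genes, 984 lay wholly higher at 29 °C, and 13.3% had groups that did not overlap in either direction. Between 29 °C and 22 °C no member had separate groups, against 7.68% of all genes, and between 6 °C and 22 °C Rgs16 alone did, against 6.33%. With the split term, Rgs1 and Rgs19 passed beside Rgs16 between 29 °C and 6 °C, where that fit called 12.6% of all genes, and no member passed in the other 2 comparisons. That fit called 3.44% of genes for 29 °C against 22 °C. By temperature alone no member passed in those 2 either. There, 1 member (Rgs16) had an unadjusted p under 0.05 between 29 °C and 22 °C and 2 (Rgs16 and Rgs19) between 6 °C and 22 °C. DESeq2 called no member and 1, and voom none in both. The 8 libraries without H2-Ea-ps gave the same 3 calls between 29 °C and 6 °C, in a fit that called 9.91% of genes.

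**Figure D3:**
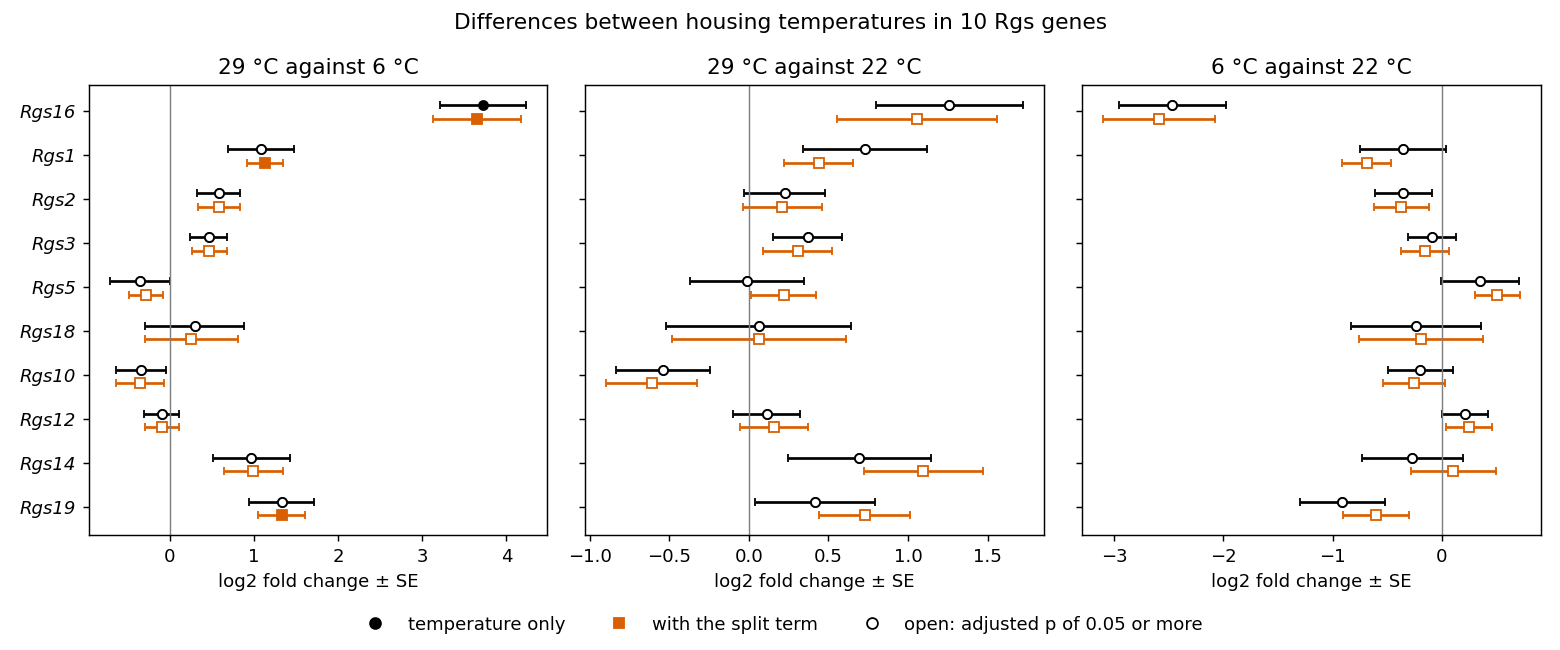
Log2 fold change ± SE of the 10 members in the 3 comparisons (horizontal axes differ between panels), by temperature alone (black circles) and with the split term (orange squares); filled symbols passed an adjusted p of 0.05. Rgs16 at 3.73 stands far from the other 9 between 29 °C and 6 °C, a contrast on which it was chosen, and Rgs1 and Rgs19 are filled there with the split term alone.

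Levels were set between genes after division by the length of their exons, joined over all annotated transcripts. For Rgs1 this length is 6947 bases, the whole span of the gene. Its level per kb, and so its place in the order, may be too low. On that scale, CPM per kb of exon averaged over the 12 libraries, Rgs16 was first at 44.8, followed by Rgs5 at 15.5, Rgs19 at 3.81 and Rgs2 at 3.80. Rgs1 (1.56), Rgs10 (1.53), Rgs3 (1.22), Rgs14 (1.08), Rgs12 (1.04) and Rgs18 (0.727) lay close together below them. The order at the top changed with temperature. At 6 °C Rgs5 was above Rgs16 in 3 of 4 libraries (Rgs16 3.35 to 13.7 and Rgs5 10.8 to 32.0 CPM per kb), library 3 being the exception. At 22 °C Rgs16 was above Rgs5 in 4 of 4 libraries (29.4 to 47.4 and 9.64 to 19.8), and at 29 °C again in 4 of 4 (36.6 to 134 and 9.42 to 19.9).

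The table holds 13 further genes with an Rgs symbol, 2 of them binding proteins rather than RGS proteins. Only Rgs4, Rgs9 and Rgs7bp passed the low-count filter, and none of the 3 was called between temperatures by edgeR, DESeq2 or voom, with 1 at an unadjusted p under 0.05 (Rgs7bp, 29 °C against 22 °C). Rgs22 had no counts in any library. Rgs7bp, an anchor for RGS proteins of another subfamily, had 0.85, 0.91, 1.06 and 0.95 CPM at 29 °C, below each of the other 8 libraries (1.20 to 3.56 CPM). Its difference was -1.23 against 22 °C (SE 0.36, adjusted p = 0.191) and -0.74 against 6 °C (SE 0.36, adjusted p = 0.280).

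**Figure D4:**
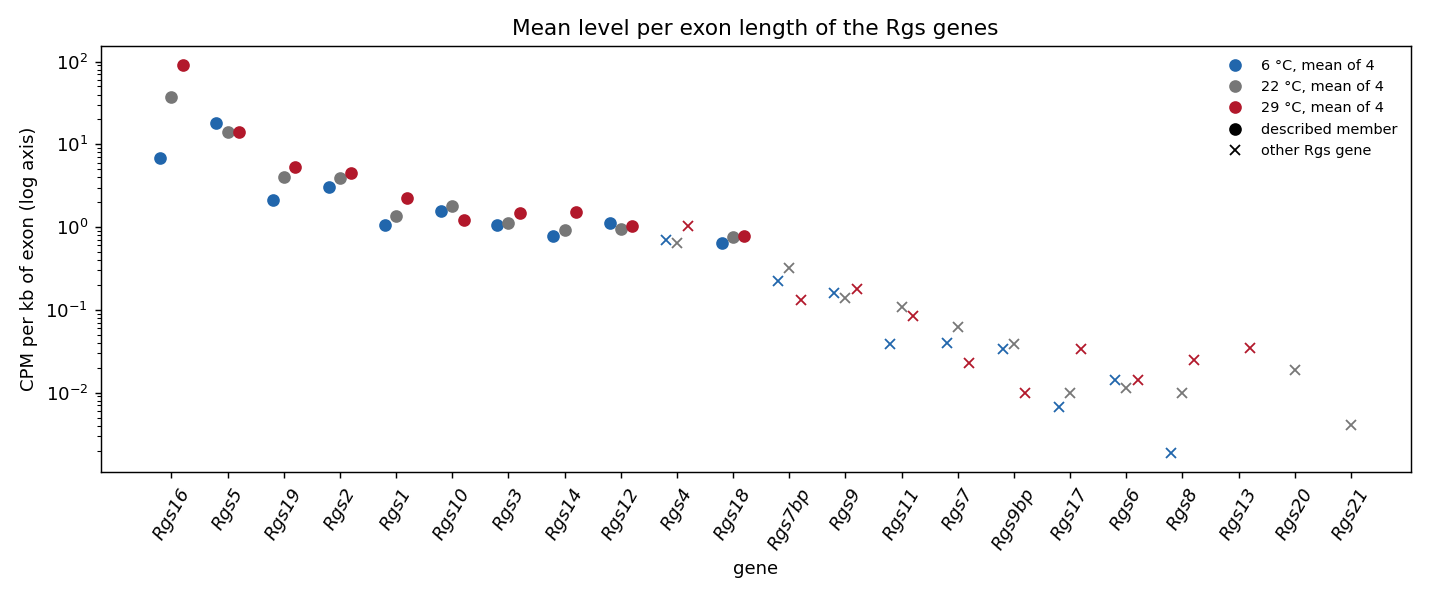
Mean level per exon length (CPM per kb, log axis) of the Rgs genes at each temperature (4 libraries each), circles for the 10 members and crosses for other Rgs genes; means of 0 cannot be drawn on this axis. Rgs16 stands at 6.76, 37.6 and 90.1 CPM per kb at 6, 22 and 29 °C, while Rgs5 stands at 18.1, 14.3 and 14.2.

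A comparison of level patterns took in 12157 genes, those with regular symbols whose log2 CPM averaged 1 or more. The genes most like Rgs16 over the 12 libraries were Igf2bp2 and Pld1 (Pearson r = 0.93 each, on log2(CPM + 1)), Dip2b and Enc1 (0.92 each) and Hectd2os (0.92). These values describe the 12 libraries, which share temperature groups, and carry no test. With the temperature means removed, r was 0.76 for Igf2bp2, 0.61 for Pld1, 0.62 for Dip2b, 0.78 for Enc1 and 0.38 for Hectd2os. Pld1, a phospholipase D, averaged 26.7 ± 3.97, 38.1 ± 2.47 and 41.0 ± 3.14 CPM (SD, n = 4 each) at 6, 22 and 29 °C. The lowest r was found for Aopep (-0.95, and -0.92 within temperatures), Pgpep1 (-0.94) and Kifc2 (-0.91). Aopep, an aminopeptidase gene, averaged 56.6 ± 9.9, 43.3 ± 2.95 and 37.4 ± 6.15 CPM. Within the family, r with Rgs16 was highest for Rgs19 (0.64), Rgs1 (0.58) and Rgs2 (0.56) and lowest for Rgs5 (-0.34). Within temperatures all 9 lay between -0.31 and 0.37.

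The partners of the RGS proteins were looked at through lists of the pathway. None of 14 measured G alpha subunits and none of 9 beta and gamma subunits was called in any temperature comparison by edgeR with temperature alone. Between 29 °C and 6 °C, 1 and 2 of them had an unadjusted p under 0.05, beside 2913 of 15006 genes. Neither DESeq2 (8.3% of all genes called) nor voom (7.26%) called one there. Voom called none in the other 2 comparisons. There DESeq2 called 1 alpha subunit (6 °C against 22 °C, 1.34% of all genes) and 1 beta or gamma subunit (29 °C against 22 °C, 2.25%). Median log2 differences between 29 °C and 6 °C were -0.05 and 0.33, beside 0.000537 for all genes. Gnai2, the main Gi subunit of blood cells, averaged 94.3 ± 17.7 CPM at 6 °C and 134 ± 29.6 CPM at 29 °C (SD, n = 4 each; log2 0.50, SE 0.20, adjusted p = 0.189, and 0.0263 with the split term). Gna11, of the Gq class, averaged 58.8 ± 8.60, 37.3 ± 2.63 and 48.9 ± 4.27 CPM at 6, 22 and 29 °C, lowest at 22 °C (6 °C against 22 °C 0.66, SE 0.13, adjusted p = 0.162).

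With temperature alone, edgeR called no receptor in any comparison, with 0 of 40 measured G protein-coupled receptors of liver cells and 0 of 22 chemoattractant receptors. At an unadjusted p under 0.05 there were 8 and 5 between 29 °C and 6 °C, beside 2913 of 15006 genes. There DESeq2 called 3 and 1 (8.3% of all genes), and voom 3 and 0 (7.26%). The chemoattractant receptors, carried mainly by white blood cells, had a median difference of 0.66 between 29 °C and 6 °C. Cxcr4 averaged 7.51 ± 3.12 and 16.3 ± 3.37 CPM at 6 and 29 °C (SD, n = 4 each; log2 1.13, SE 0.37, adjusted p = 0.118), and S1pr4 1.79 ± 1.12 and 5.25 ± 2.07 CPM (1.53, SE 0.55, adjusted p = 0.144). With the split term 3 of the 22 passed, all higher at 29 °C and among them Cxcr4 (adjusted p = 0.0432) and S1pr4 (0.00394), which is near the share of all genes that passed in that fit (12.6%). These are receptors of the cells whose marker sums are given above, and their part was not tested. Among receptors of liver cells, the alpha-1B adrenergic receptor gene Adra1b, which signals through Gq in hepatocytes, averaged 80.8 ± 25.1, 66.4 ± 17.4 and 43.4 ± 12.8 CPM at 6, 22 and 29 °C. Its difference between 29 °C and 6 °C was -0.89 (SE 0.29, adjusted p = 0.111, and 0.00312 with the split term). Ffar2, a receptor for short-chain fatty acids, lay at 0.269 ± 0.210 and 2.30 ± 0.854 CPM (2.95, SE 0.83, adjusted p = 0.0750, and 0.00427 with the split term). Its mean at 6 °C lies within the counting limits of those libraries (0.226 to 0.394 CPM), so the size of this difference is imprecise.

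Downstream, 2 of 33 measured effectors were called between 29 °C and 6 °C, 1 in each direction, beside 2.53% of all genes in this comparison. With the split term 4 effectors were called higher and 2 lower, beside 12.6% of all genes. Prkcd, protein kinase C delta, rose from 27.2 ± 5.63 to 47.0 ± 9.32 CPM (SD, n = 4 each; log2 0.79, SE 0.18, adjusted p = 0.0353). Prkar2a, a regulatory subunit of protein kinase A, fell from 125 ± 11.7 to 76.9 ± 7.99 CPM (-0.70, SE 0.17, adjusted p = 0.0468). Of 12 receptor kinases and arrestins, 1 was called, the alpha-arrestin Txnip, which is not a receptor arrestin and is known for its response to glucose. With the split term 5 of the 12 were called, all higher at 29 °C, beside 12.6% of all genes. Grk2, a kinase that turns off receptors, averaged 54.5 ± 7.23 and 82.8 ± 10.7 CPM (0.60, SE 0.17, adjusted p = 0.0687, and 0.00910 with the split term). The 16 other RGS-domain proteins and modulators gave no call by edgeR with temperature alone, DESeq2 or voom, with a median of 0.05. Of them, 3 had an unadjusted p under 0.05, beside 2913 of 15006 genes. With the split term 1 passed, Gpsm3 (adjusted p = 0.0471).

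Rgs16 has been linked to the carbohydrate-response factor ChREBP and is known to follow feeding state, so 2 lists of response genes were set beside it. Of 25 ChREBP-related genes, 5 passed between 29 °C and 6 °C, all higher at 29 °C, beside 2.53% of all genes in either direction, with a median of 0.46 on the log2 scale. Txnip rose from 81.8 ± 17.4 to 435 ± 238 CPM (SD, n = 4 each; 2.41, SE 0.48, adjusted p = 0.0276). Tkfc, a kinase of fructose metabolism, rose by 1.37 (SE 0.24, adjusted p = 0.0197). Fgf21, a liver hormone, rose from 0.559 ± 0.697 to 27.4 ± 12.5 CPM (5.45, SE 0.97, adjusted p = 0.0228). Its level at 6 °C was near the counting limit, with an SD above the mean, so the size of that rise is imprecise. Klf10 and Bhlhe40 also passed (2.67 and 1.55), and Bhlhe40 was named after its value was seen. The remaining 20 did not pass, and 17 of the 25 had a positive difference. Between 6 °C and 22 °C the median of the 25 was 0.14, with 15 higher at 6 °C, whereas Rgs16 was lower there (-2.47). With the split term 9 of the 25 were called, all higher at 29 °C, beside 12.6% of all genes. Of 20 genes of the cAMP and CREB response, which rises in fasting, 1 passed, the amino acid enzyme Tat, which fell by 1.62 (SE 0.31, adjusted p = 0.0227). The median of the 20 was 0.37, with 13 of them positive. With the split term 3 of them were called higher and 3 lower, beside 12.6% of all genes. Ppargc1a, a coactivator of the fasting response, averaged 30.3 ± 5.12 and 17.4 ± 3.62 CPM (-0.80, SE 0.21, adjusted p = 0.0606, and 0.0130 with the split term). Atf3 went the other way, at 3.38 ± 0.970 and 30.6 ± 36.3 CPM (3.18, SE 0.80, adjusted p = 0.0623, and 0.0511 with the split term). By edgeR with temperature alone no gene of either list passed in the other 2 comparisons. With the split term, 2 ChREBP-related genes were called higher and 1 cAMP gene lower at 29 °C than at 22 °C (3.44% of all genes). In that fit 1 ChREBP-related gene was called lower at 6 °C than at 22 °C (0.367%). Of the ChREBP-related genes, 12 of 25 had an unadjusted p under 0.05 between 29 °C and 22 °C, beside 2241 of 15006 genes. There DESeq2 called 5 of them (2.25% of all genes) and voom 1 (0.0333%). With temperature in the fit, 13 of the 25 were called lower in the 4 libraries with H2-Ea-ps and 0 higher. Their median there was -0.65, and 22.6% of all genes differed with the split in either direction. The part of the split in their temperature differences was not tested. The lists were chosen with earlier results of these data known, and feeding state at collection was not analysed here.

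**Figure D5:**
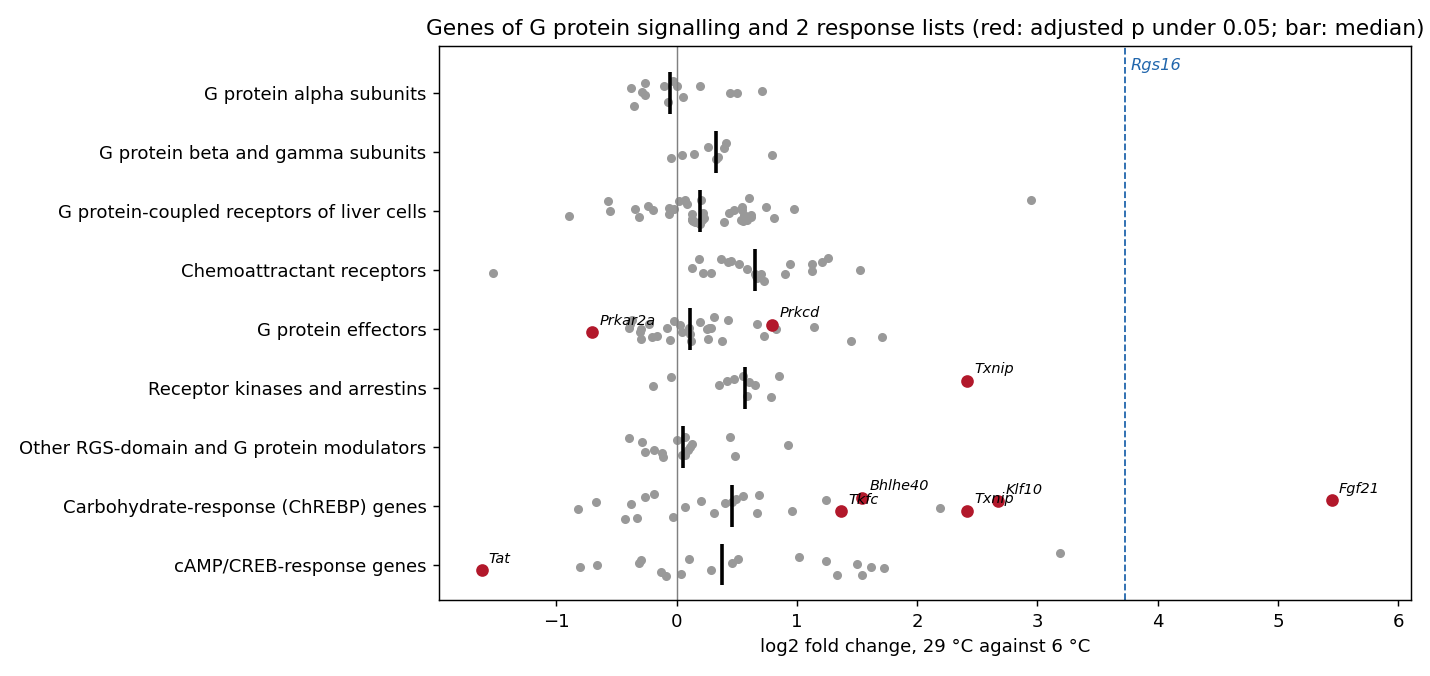
Log2 fold change between 29 °C and 6 °C of each tested gene of 9 lists, with black bars at the list medians, red points for genes with an adjusted p under 0.05 and a dashed line at Rgs16 (3.73). Called genes are Prkcd, Prkar2a, Txnip (in 2 lists), Tkfc, Fgf21, Klf10, Bhlhe40 and Tat, and no subunit or receptor list holds one.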

How the data were processed

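Liver RNA, depleted of ribosomal RNA per the labels' protocols, was sequenced in 12 libraries, 4 per temperature. The authors deposited whole-number counts per gene in 1 table, with no normalization. Per the submitters' processing notes, the build was GRCm38 and the tools included STAR 2.6.1a, bcl2fastq and DESeq2 1.44.0. How reads were counted, and whether by strand, is not given in the sources used here. Positions came from GENCODE M21 by identical identifier and version, which matched 54673 of 55421 genes and all Rgs genes.

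The deposited counts went unchanged into edgeR 4.0.16 (R 4.3.3) for robust quasi-likelihood tests, two-sided, after TMM scaling and filterByExpr. All 12 libraries entered 1 fit of 3 group means with 9 residual degrees of freedom. Calls are at a Benjamini-Hochberg adjusted p under 0.05 over all 15006 genes, and levels are TMM-scaled CPM. The split term marks the 4 libraries in which H2-Ea-ps reached 1 CPM and leaves 8 residual degrees of freedom. The fit was checked on simulated data. Chi-square per degree of freedom between replicates was 12.7 to 136, so no pair agreed within sampling noise. Library sizes of 7615585 to 19001126 counts set the precision of low genes.

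The members and lists were chosen with earlier results of these data known. Named were all members, other Rgs genes past the filter, up to 3 genes of lowest p per list and the 5 most like and 3 least like Rgs16. Bhlhe40, another call of a list, and the marker pairings were added after their values were seen. Alternatives were other size factors, no low-count filter, DESeq2 1.42.0, voom (limma 3.58.1), the 8 libraries compared, the split term, the 8 libraries without H2-Ea-ps and each library left out. Leaving out libraries under the split term and the interaction of split and temperature were added after seeing the data.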

Additional observations from a re-analysis of the deposited data

Results flagged for a closer look

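The level of Rgs19 in library 4 at 6 °C, 2.26 CPM, stood apart from the other 3 libraries of that temperature, which lay between 5.45 and 5.64 CPM. Its gap to the nearest of them is 0.944 of the group's range, above Dixon's critical value for 4 samples. All 30 groups of a member at a temperature were looked at, and chance flags about 1 group in 20. The same library had the lowest sum of neutrophil markers (29.4 CPM), and the part of that in the value was not tested.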

How the results depend on the processing

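No paired analysis was possible because the library numbers differ between temperatures. Members called between 29 °C and 6 °C numbered 1 by temperature alone, 2 by DESeq2 (8.3% of genes called) and in the 8 libraries compared (3.52%), and 3 by voom (7.26%), with the split term (12.6%) and in the 8 libraries without H2-Ea-ps (9.91%). Each of these counts includes Rgs16, on which the family was chosen, and nothing is read from that call. Beside it, the counts of 2 hold Rgs19 and the counts of 3 hold Rgs1 and Rgs19. Between 29 °C and 22 °C the count went from 0 to 2 in those 8 libraries, which were Rgs14 and Rgs19, in a fit that called 17.1% of genes. Between 6 °C and 22 °C it went from 0 to 1, Rgs16, by DESeq2, and with each library left out it was 0 to 1. For the split, 3 members (22.6% of genes called) became 5 without the low-count filter (14.1%), Rgs16 and Rgs14 joining, and 2 to 4 with each library left out (16% to 23%). The causes were not tested. Rgs19 and Rgs1 were called in 5 and 3 of 20 alternatives between 29 °C and 6 °C. Of the alternatives for members' log2 differences, 27 turned the sign, each of a difference that had not passed. With the split term, Rgs5 (29 °C against 22 °C) became 0.22 and Rgs14 (6 °C against 22 °C) 0.11. In the 8 libraries without H2-Ea-ps, Rgs18 became -0.026 (29 °C against 6 °C) and -0.85 (29 °C against 22 °C, and -0.28 by voom), Rgs5 0.18 (29 °C against 22 °C), Rgs3 0.17 and Rgs14 0.86 (6 °C against 22 °C). With each library left out, the ranges that crossed 0 were as follows. For 29 °C against 6 °C they were -0.57 to 0.066 (Rgs5) and -0.25 to 0.55 (Rgs18). For 29 °C against 22 °C they were -0.22 to 0.18 (Rgs5), -0.034 to 0.30 (Rgs12) and -0.48 to 0.32 (Rgs18). For 6 °C against 22 °C they were -0.33 to 0.050 (Rgs3), -0.081 to 0.55 (Rgs5), -0.54 to 0.14 (Rgs14) and -0.49 to 0.11 (Rgs18). For the split they were -0.19 to 0.062 (Rgs2), -0.33 to 0.0060 (Rgs3) and -0.14 to 0.73 (Rgs18). Depth limits Rgs18 and Rgs10 most, with 234 and 412 counts over the 12 libraries.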
